A study of Mus musculus with 2 samples.

Results

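Clotting begins when tissue factor on a cell surface meets factor VII, and it is held in check on the same surfaces by thrombomodulin, the endothelial protein C receptor and tissue factor pathway inhibitor. The 9 genes described here encode parts of that system and of plasminogen activation: F3, F7, F10, F13a1, Thbd, Procr, Tfpi, Plau and Plaur. They were taken by function, as genes known to respond to lipopolysaccharide, statins or the transcription factor KLF2. All 15 probe sets that the platform annotation gives to 1 of these symbols alone were used, and the 9 genes stand among 18193 genes named in this way on the array. Of the 9, 3 genes had several probe sets and 6 had 1 each.

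The cells were peritoneal macrophages of C57BL/6J mice, taken 3 days after an injection of thioglycolate, which inflames the peritoneum and recruits macrophages there. Cells of one sample had received LPS+CPN+GGOH and those of the other LPS+CPN. The treatment labels thus shared LPS and CPN and differed only in GGOH. LPS is lipopolysaccharide, a bacterial product that activates macrophages, GGOH is geranylgeraniol, an isoprenoid alcohol that cells can use for attaching lipid anchors to proteins, and CPN is given only by that abbreviation. The comparison asks which genes were higher or lower with GGOH in cells that had LPS and CPN. There was 1 array per condition, with no untreated sample and no replicate, so no difference carries a test, and each describes these 2 arrays.

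Tissue factor, the product of F3, is the receptor that binds factor VII and starts the clotting cascade, in which factor X is the next enzyme to be activated. Macrophages are known to make tissue factor after exposure to lipopolysaccharide. Thrombomodulin binds thrombin and turns it towards activation of protein C, an anticoagulant, with the protein C receptor presenting the substrate. On the fibrinolytic side, urokinase (Plau) bound to its receptor (Plaur) makes plasmin, the protease that dissolves fibrin.

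The upstream sequences of 3 members are shown because these hold the letters of an AP-1 motif, and they set F3, which was higher with GGOH, beside Procr and Plaur, which differed by under 2-fold. Each is the 250 bases before the RefSeq start site in GRCm38.p6, 5′ to 3′ on the gene's strand, with capitals where a searched motif matches on either strand. The F3 window lies at chr3:121723287-121723536, the Procr window at chr2:155750967-155751216 and the Plaur window at chr7:24462233-24462482, all on the plus strand.
F3: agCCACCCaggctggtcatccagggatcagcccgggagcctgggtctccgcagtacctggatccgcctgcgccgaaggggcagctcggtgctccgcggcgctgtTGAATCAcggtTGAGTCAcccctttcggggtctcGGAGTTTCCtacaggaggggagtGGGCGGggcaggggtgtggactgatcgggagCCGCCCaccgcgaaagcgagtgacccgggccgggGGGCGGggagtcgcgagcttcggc
Procr: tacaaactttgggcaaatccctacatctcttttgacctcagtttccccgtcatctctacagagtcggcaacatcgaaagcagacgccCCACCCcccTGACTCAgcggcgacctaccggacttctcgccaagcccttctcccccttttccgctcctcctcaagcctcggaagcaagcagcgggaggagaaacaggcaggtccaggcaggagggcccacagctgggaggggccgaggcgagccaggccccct
Plaur: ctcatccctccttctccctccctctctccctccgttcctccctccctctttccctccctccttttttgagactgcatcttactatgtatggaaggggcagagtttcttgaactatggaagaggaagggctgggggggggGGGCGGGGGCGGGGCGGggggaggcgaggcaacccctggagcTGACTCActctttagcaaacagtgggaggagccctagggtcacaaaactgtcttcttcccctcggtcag

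The letters searched were TGANTCA for AP-1, then GGGCGG for SP1, then CCACCC for Krüppel-like factors, then GGANTTTCC for NF-kB, then GCGNGGGCG for EGR1 and TATAAA for a TATA box. The F3 window held 2 AP-1 matches, 3 SP1 matches, 1 match for Krüppel-like factors and 1 for NF-kB. Among 32851 windows of the same length in the RefSeq promoter table, 6.75% held the AP-1 letters, 32.7% the SP1 letters, 28.1% the Krüppel-like factor letters and 1.07% the NF-kB letters. Procr held 1 AP-1 match and 1 for Krüppel-like factors. Plaur held 1 AP-1 match, 3 for SP1 and 1 for EGR1, with the EGR1 match overlapping SP1 matches; the EGR1 letters occurred in 4.70% of windows and TATAAA in 12.4%. Among members not shown, F7 and F10 each held 1 match for Krüppel-like factors. F13a1 held 2 of these and 1 for NF-kB. Each Tfpi window held 1 SP1 match, and 1 of them held the TATA letters. Windows were found for 7 of the 9 members (F3, F7, F10, F13a1, Procr, Tfpi and Plaur), and the matches describe letters, not bound sites.

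Signals are MAS5 intensities on a linear scale, in which the probes of a probe set are reduced to 1 value. The probe-set signals had a median of 63.7 on the LPS+CPN+GGOH array and 56.7 on the LPS+CPN array. A floor of 59.9, the 50th percentile of all non-control signals, was used as the limit below which a signal was not told from background. A gene at the floor on 1 array has a bound in place of a ratio. Of 18093 genes with a probe set outside the cross-hybridizing _x_at class, 11518 were above the floor on at least 1 array. At 2-fold or more, 5.50% of those were higher with GGOH (634 genes) and 1.66% were lower (191 genes). Higher genes thus made up 76.8% of those past 2-fold, a share that was 61.4% when each array was divided by its median, 62.5% with quantile-normalized signals and 87.8% with macrophage markers set equal. Where a gene had several probe sets above the floor on both arrays, their log2 ratios varied with a pooled SD of 0.45 (4166 genes). That SD describes disagreement between probe sets on the same arrays. It holds no error between cultures, animals or arrays, for which these data offer no estimate. The RNA differed in its 3′ to 5′ signal ratio, which was 1.24 with LPS+CPN+GGOH and 2.44 with LPS+CPN for Actb, and 0.956 with LPS+CPN+GGOH and 1.98 with LPS+CPN for Gapdh.

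Of the 9 members, 8 were above the floor on at least 1 array, 7 of them on both. F3 and Thbd were at least 2-fold higher with GGOH, beside 5.50% of all measured genes, and 0 members were at least 2-fold lower, beside 1.66%. The same 2 genes were also at least 4-fold higher, as were 1.66% of measured genes (191). F3 passed 4-fold narrowly, at 4.03-fold against the floor, and this call depended on the setting. Its log2 bound was 1.92 with arrays divided by their medians, 1.90 with quantile normalization and 1.99 with lowess on mean signal. Each of these is under 4-fold. With a pseudocount F3 had 1.95 and Thbd 1.96, also under 4-fold. The 6 others differed by under 2-fold in either direction, and 5 of the 8 log2 ratios were below 0. The median of the 8, with F3 at its bound, was -0.13, against -0.01 over all measured genes.

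**Figure D1:**
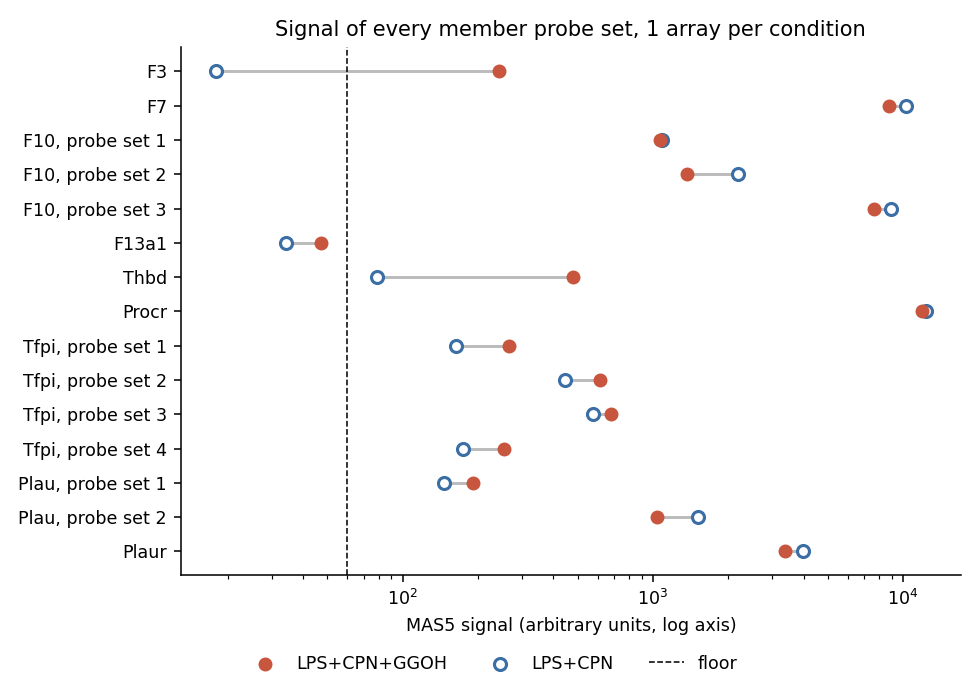
MAS5 signal (log axis) of each of the 15 member probe sets on the LPS+CPN+GGOH array (filled) and the LPS+CPN array (open), with the floor of 59.9 as a dashed line and rows in order of role. F3 and Thbd show the widest gaps, F13a1 lies left of the floor on both arrays, and the points of F7, Procr and Plaur lie close together at high signal.

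Thbd, thrombomodulin, had a signal of 479.5 with LPS+CPN+GGOH and 78.8 with LPS+CPN. Both values came from its single probe set, and the LPS+CPN value lay just above the floor. The log2 ratio was 2.61, a 6.09-fold higher signal with GGOH, and 104 of the 11518 measured genes had a higher ratio. Large ratios were more frequent at this brightness than among all genes. Of 1437 genes within 0.5 log2 units of Thbd's mean signal, 13.2% were at least 2-fold higher, and 68, Thbd included, had a ratio as high. The middle 90% of their log2 ratios ran from -0.66 to 2.56, so Thbd lay just outside that range. With the floor at the 75th percentile, a signal of 375.7, only a bound remained, a log2 ratio of at least 0.35, and that bound lies under 2-fold because the floor took the place of the LPS+CPN signal.

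F3 had a signal of 241 with LPS+CPN+GGOH and 17.9 with LPS+CPN, again from 1 probe set. It was above the floor only with GGOH, so the transcript was at least 4.03-fold higher against the floor, a log2 ratio of at least 2.01. Since F3 entered the measured genes through the array on which it was high, it could only come out as higher. Among 1522 genes of like mean signal, 24.0% were at least 2-fold higher, and 188 of all measured genes had a higher value. At the 75th percentile floor F3 was not measured on either array. In bulk RNA of this kind, fewer cells of a type and less RNA per cell cannot be told apart.

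**Figure D2:**
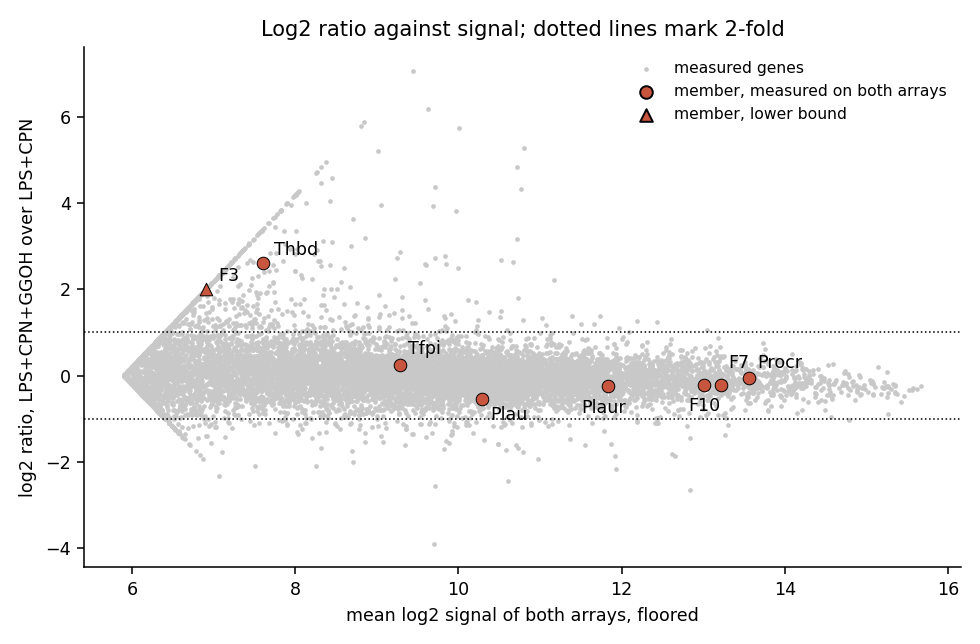
Log2 ratio of LPS+CPN+GGOH over LPS+CPN against the mean log2 signal of both arrays for 11518 measured genes (grey) and the 8 measured members (red; triangle, lower bound). F3 and Thbd lie above the 2-fold line in the dim range where the spread of all genes is wide, and the other 6 lie within the band of genes of their own signal.

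The enzymes that act with tissue factor were within 2-fold between the arrays. F7, factor VII, had a signal of 8793 with LPS+CPN+GGOH and 10247 with LPS+CPN, a log2 ratio of -0.22. The same direction held for the brightest probe set of F10, factor X, at 7610.3 with LPS+CPN+GGOH and 8913 with LPS+CPN, a log2 ratio of -0.23. F7 and F10 are neighbouring protein-coding genes on chromosome 8, and both were bright on each array. The further F10 probe sets gave 1068 with LPS+CPN+GGOH against 1087 with LPS+CPN, and 1364 with LPS+CPN+GGOH against 2186 with LPS+CPN. Their log2 ratios were -0.02 and -0.68, so all 3 were below 0, none reached 2-fold, and they differed among themselves by an SD of 0.34. F13a1, the A subunit of the enzyme that cross-links fibrin, had 46.9 with LPS+CPN+GGOH and 34.2 with LPS+CPN, under the floor on both arrays, and has no ratio.

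The other anticoagulant members differed by less than Thbd and stayed within 2-fold. Procr, the protein C receptor, gave 11885.5 with LPS+CPN+GGOH and 12285.5 with LPS+CPN, a log2 ratio of -0.05. That value changed sign with the scaling, being -0.21 with each array divided by its median and 0.11 with macrophage markers set equal. Tfpi encodes the inhibitor of the tissue factor and factor VII complex and had 4 probe sets. The brightest gave 677 with LPS+CPN+GGOH and 574 with LPS+CPN, and the next 615 with LPS+CPN+GGOH and 443 with LPS+CPN. The dimmer ones gave 265 with LPS+CPN+GGOH against 163 with LPS+CPN, and 254 with LPS+CPN+GGOH against 175 with LPS+CPN. All 4 were higher on the LPS+CPN+GGOH array, with log2 ratios from 0.24 to 0.70 and a median of 0.51, and none reached 2-fold. The probe sets share 1 RNA sample per condition and are not replicates.

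In plasminogen activation, the probe sets of Plau went opposite ways. The brighter one had 1038 with LPS+CPN+GGOH and 1513 with LPS+CPN, a log2 ratio of -0.54, while the dimmer one had 192 with LPS+CPN+GGOH and 146 with LPS+CPN, a log2 ratio of 0.39. Their median was -0.08, so the direction for urokinase depends on the probe set. Plaur, the urokinase receptor, had 3367 with LPS+CPN+GGOH and 3972 with LPS+CPN, a log2 ratio of -0.24 from 1 probe set. Both values lay inside the range that holds the middle 90% of genes of their signal, -0.68 to 0.60 for Plau and -0.68 to 0.46 for Plaur.

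**Figure D3:**
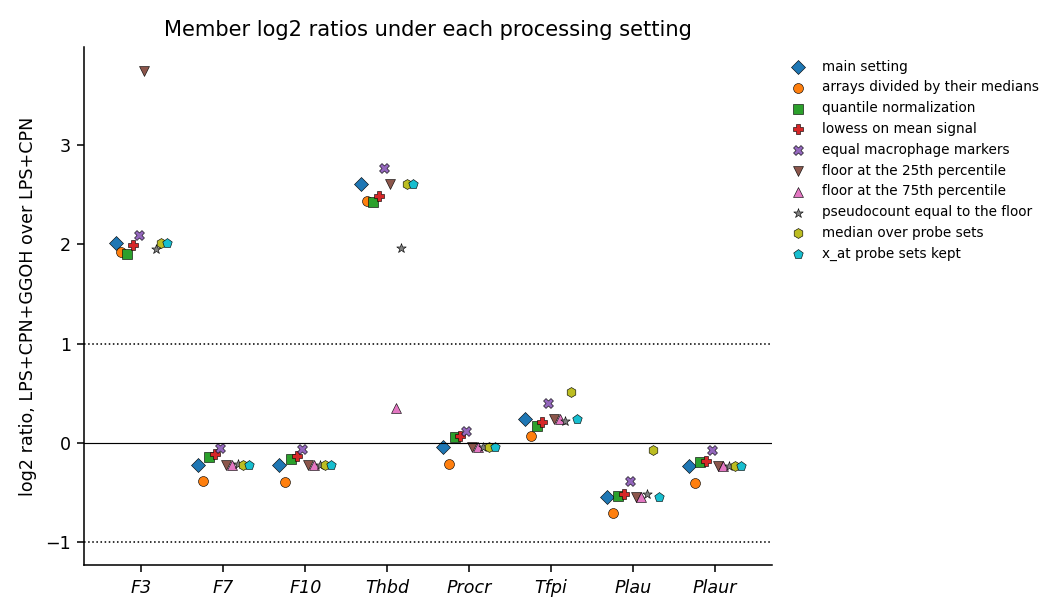
Log2 ratio of each measured member under the main setting and 9 alternatives, with dotted lines at 2-fold. F3 and Thbd stay above the upper line except at the 75th percentile floor, where F3 has no value and Thbd has a bound of 0.35; no other member reaches either line under any of these settings.

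Of 46 other genes in 5 lists of clotting, anticoagulation, protease receptors, fibrinolysis and transcription factors, 40 were looked up by a probe set of their own and 21 of these were measured. At 2-fold or more, 4 were higher with GGOH, beside 5.50% of all measured genes, and 3 were lower, beside 1.66%. Of the 4, 1 has only a bound, with LPS+CPN at the floor, and could come out only as higher. The median log2 ratio of the 21 was -0.17. The genes of the lists without such a probe set were not analysed here.

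Fibrinolysis genes held the largest ratio of these lists. Serpinb2, plasminogen activator inhibitor 2, which inhibits urokinase, had 3241 with LPS+CPN+GGOH and 211 with LPS+CPN, 15.4-fold higher from 1 probe set. Plat, tissue-type plasminogen activator, had 228 with LPS+CPN+GGOH and 63.8 with LPS+CPN, 3.57-fold higher with the LPS+CPN signal close to the floor. The 4 others measured in this list of 13 were within 2-fold: Plgrkt, a plasminogen receptor, had a log2 ratio of 0.0044, the annexin complex genes S100a10 and Anxa2 had 0.05 and -0.25, and Lrp1, a clearance receptor for protease and inhibitor complexes, had -0.61 in its brighter probe set and 0.11 in the other. The list's median was 0.03.

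Other clotting factors were mostly below the floor. Of 11, only 2 were measured, and 9 were at the floor on both arrays, F2 (prothrombin), F5 and the fibrinogen chain genes Fga, Fgb and Fgg among them. Vwf, the platelet-binding protein of endothelium, had 89.6 with LPS+CPN+GGOH and 188 with LPS+CPN, 2.10-fold lower, and was within 2-fold with macrophage markers set equal or with a pseudocount, and unmeasured at the 75th percentile floor. Among 9 further anticoagulant genes 3 were measured and 0 passed 2-fold: Anxa5, which covers exposed phosphatidylserine, had a log2 ratio of -0.28, the protein C cofactor gene Pros1 -0.41, and Gas6, a vitamin K-dependent ligand, 0.44. F2r, the main thrombin receptor of many cells, had 186 with LPS+CPN+GGOH and 36.2 with LPS+CPN, at least 3.10-fold higher, and its other probe set had a log2 bound of 3.25. Being above the floor only with LPS+CPN+GGOH, F2r could come out only as higher. Another protease receptor, F2rl2, was at least 1.80-fold lower. It was above the floor only with LPS+CPN and could come out only as lower.

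The transcription factor list, all 8 measured, had 1 gene at least 2-fold higher, 2 lower and a median log2 ratio of -0.37. Klf2, which is known to raise Thbd in endothelial cells, had 215 with LPS+CPN+GGOH and 3222 with LPS+CPN, a log2 ratio of -3.90. Klf4, its close relative, had a log2 ratio of -1.87. Klf6, of the same list, was 1.97-fold lower, with log2 ratios from -1.60 to -0.44 over 4 probe sets. With each array divided by its median, Klf6 also passed 2-fold. Thbd had a log2 ratio of 2.61, with its LPS+CPN signal just above the floor. Any link of Klf2 or Klf4 with Thbd on these arrays was not tested. Egr1, which is known to act on the F3 promoter, had 2259 with LPS+CPN+GGOH and 378 with LPS+CPN, a log2 ratio of 2.58. The F3 window held no match to the EGR1 letters searched, and any link between Egr1 and F3 was not tested. Rela, a subunit of NF-kB, had a log2 ratio of -0.57, and Fos, an AP-1 gene, had 0.58. The AP-1 gene Jun had -0.08 in its brighter probe set and -1.002 in the other, a 2-fold lower signal.

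**Figure D4:**
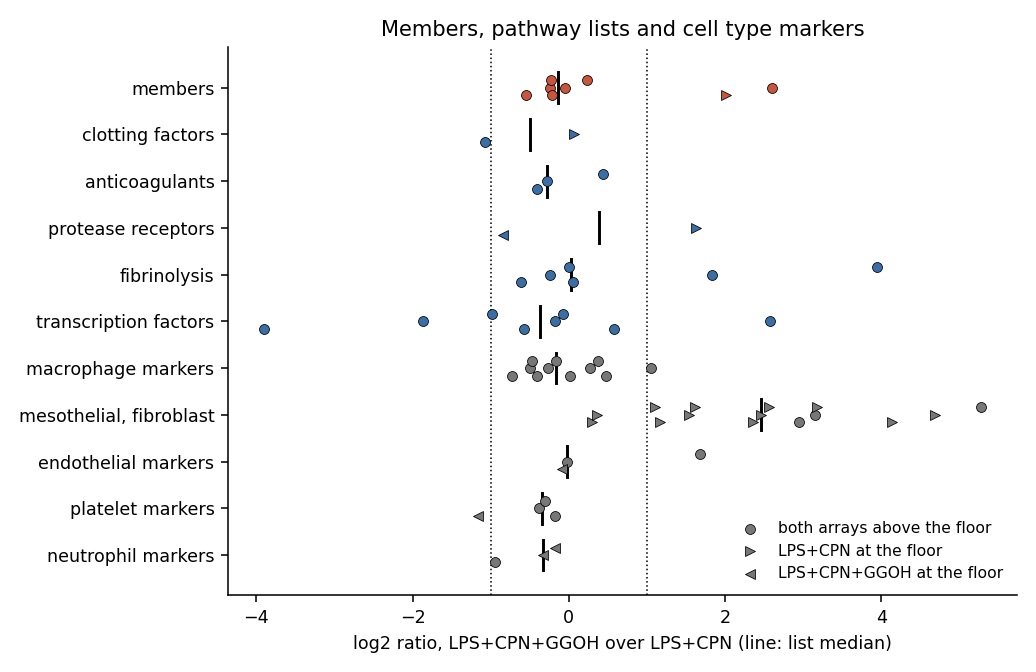
Log2 ratios of LPS+CPN+GGOH over LPS+CPN for measured members (red), the 5 pathway lists (blue) and cell type markers (grey); arrowheads are bounds, vertical strokes list medians, dotted lines 2-fold. Mesothelial and fibroblast markers lie to the right with a median of 2.46, and macrophage markers lie around -0.16.

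Markers of a further cell type were higher on the same array as F3, Thbd, Plat, Serpinb2 and F2r. All 11 macrophage markers with a probe set were above the floor on both arrays, as the cell type label would have it, with signals summing to 138742 with LPS+CPN+GGOH and 146345 with LPS+CPN and a median log2 ratio of -0.16. Of these, 1 was at least 2-fold higher, Itgam, at 646 with LPS+CPN+GGOH and 312 with LPS+CPN, and 0 were lower. Of 16 mesothelial and fibroblast markers, 15 were above the floor with LPS+CPN+GGOH and 3 with LPS+CPN, and 13 were at least 2-fold higher, beside 5.50% of all measured genes. Of these 13, 10 have only a bound, with LPS+CPN at the floor, and could come out only as higher. The summed signal of all 16 was 21892 with LPS+CPN+GGOH and 1311 with LPS+CPN. Most of the LPS+CPN+GGOH sum came from Col1a2 at 11165 and Dcn at 5043. Their probe sets disagreed in size, with log2 ratios from 0.88 to 5.83 for Col1a2 and from 0.26 to 3.16 for Dcn. Wt1 and Msln, which mark mesothelium, were at the floor with LPS+CPN. Tissue factor is also known in fibroblasts, and thrombomodulin in mesothelial cells. The part of these cells in the F3 and Thbd differences was not tested, and nor was that of the 3′ to 5′ signal ratio.

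Endothelium is the tissue in which thrombomodulin and the protein C receptor are best known. Of 10 endothelial markers, 7 were at the floor on both arrays, Pecam1 and Cdh5 included, and 1 of 3 measured, Esam, was at least 2-fold higher. Summed signals were 511 with LPS+CPN+GGOH and 398 with LPS+CPN. Among 6 platelet and megakaryocyte markers with a probe set, 4 were measured, 0 were higher and 1 was lower. The lower one, Gp9, has only a bound, with LPS+CPN+GGOH at the floor, and could come out only as lower. The sums were 3035 with LPS+CPN+GGOH and 3769 with LPS+CPN. Most of each came from Pf4, at 2611 with LPS+CPN+GGOH and 3222 with LPS+CPN. Neutrophil markers had 3 of 7 measured and 0 past 2-fold, with sums of 2413 with LPS+CPN+GGOH and 4554 with LPS+CPN, nearly all from S100a8 at 2216 with LPS+CPN+GGOH and 4282 with LPS+CPN. All 6 B and T cell markers and all 5 hepatocyte markers with a probe set were at the floor on both arrays.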

How the data were processed

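Expression was measured in 2 samples, 1 array each, and samples were grouped by their treatment label. The deposited table holds 1 signal intensity per probe set, made by the authors with MAS5 per the submitters' processing notes, which give neither its version nor a scaling target. The mean of the central 96% of signals was 500.004 on each array, so the deposited values were already scaled alike. Having 1 array per condition limits the precision. Neither dose nor duration is stated in the labels, nor whether the cultures shared animals.

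The platform annotation gives 1 gene symbol to 34945 of 45037 non-control probe sets, several to 932 and none to 9160; 34741 matched RefSeq GRCm38.p6 by gene identifier and 0 symbols changed. From these, 2038 _x_at probe sets were left out of gene values. Each gene took its brightest probe set by mean log2 signal, signals under the 50th percentile were raised to it, and the log2 ratio was LPS+CPN+GGOH minus LPS+CPN, with Python 3.11.15, pandas 2.3.3 and statsmodels 0.14.6. No test was run, for lack of replicates. The steps were tested on simulated data, with changes planted only in genes above the floor on both arrays. The simulated noise was smaller than the SD between probe sets, and genes that have only a bound were not the target of that test. The members, lists and settings were chosen with earlier results of these data known. All members were named, and of each pathway list every gene past 2-fold plus a fixed set of regulators and inhibitors. Others named, such as Gas6, Anxa5, Plgrkt, Lrp1, F2rl2, Klf6, Jun, Fos and the single markers, were chosen after their values were seen. Alternatives were 4 scalings, 2 floors, a pseudocount, the median over probe sets and _x_at probe sets kept.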

Additional observations from a re-analysis of the deposited data

How the results depend on the processing

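F3 and Thbd were the 2 members at least 2-fold higher under 8 of 9 alternatives. Keeping _x_at probe sets or taking the median over probe sets could not change them, since each has 1 probe set. Where its LPS+CPN signal was at the floor, F3 could come out only as higher or unmeasured. With the floor at the 75th percentile 0 members were at least 2-fold higher. That floor lies above the F3 signals and the LPS+CPN signal of Thbd. Pathway genes higher numbered 2 (Egr1 and Serpinb2) there, against 4. With the floor at the 25th percentile, pathway genes lower numbered 5 against 3. No member was at least 2-fold lower under any of the 9. Of 71 member ratios recomputed, 67 shifted by less than the SD between probe sets, 0.45, and 4 by more: F3 to 3.75 with the 25th percentile floor, Thbd to 1.96 with a pseudocount and to a bound of 0.35 with the 75th percentile floor, and Plau to -0.08 as the median over probe sets. Some of the 67 could not shift, because no member had an _x_at probe set. A member with 1 probe set has that value as its median, and signals above a changed floor stay as they were. F13a1 had a log2 ratio of 0.45 only with the 25th percentile floor. Division by the medians shifted the median of all genes by -0.16 and equal macrophage markers by 0.15. Over all genes, 634 were higher in the main setting, 1658 with the 25th percentile floor and 126 with the 75th. Lower genes numbered 191, against 332 with medians, 304 after quantile normalization, 115 with equal macrophage markers, 1127 with the 25th percentile floor and 88 with the 75th. No paired analysis was possible because each group has 1 array. Signals near or under the floor on at least 1 array limit what can be said of F3, Thbd, Plat, F2r, F2rl2 and Vwf.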
